A study of Mus musculus with 8 samples.

Results

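The 6 genes described here are 4930523C07Rik, Malat1, Neat1, Gas5, Snhg1 and Kcnq1ot1, taken by symbol from count tables that list 23420 gene symbols. All 6 were present and all 6 passed the filter on low counts, which left 14598 genes. The genes were chosen by name with their CPM (read counts scaled to library size) and their genotype differences already known, so the genotype differences of these 6 genes are descriptions and carry no test. The label under which they were grouped, long noncoding RNAs, is the RefSeq class of 5 of them. GENCODE gives these 5 the classes lincRNA, antisense or processed transcript, and no coding transcript. 4930523C07Rik is annotated as protein coding by GENCODE and by RefSeq, with an open reading frame of 99 codons, and 2 of its 6 GENCODE transcripts are coding. It is therefore called a gene here and not a long noncoding RNA.

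The data are polyadenylated RNA sequencing of mouse uterine stromal cells at day 3, with 4 libraries of each label, Erbb3f/f and Erbb3d/d. By mouse convention, f stands for a floxed allele and d for a deleted one. No Cre line or promoter, no event from which day 3 is counted and no number of animals per library is given in the labels, so the errors describe the spread between these libraries only. The libraries were not made strand by strand, so reads of overlapping genes on opposite strands cannot be assigned by direction.

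Long noncoding RNAs act as RNA rather than as templates for protein. Malat1 and Neat1 are neighbouring nuclear transcripts: Malat1 collects in nuclear speckles, which are rich in splicing factors, and Neat1 is the scaffold around which paraspeckles assemble. Gas5 and Snhg1 are host genes that carry small nucleolar RNAs in their introns, and their spliced RNAs are known targets of nonsense-mediated decay. Kcnq1ot1 is an imprinted antisense RNA within Kcnq1, and it silences neighbouring genes, among them the growth inhibitor Cdkn1c, on the paternal chromosome. No function of 4930523C07Rik is stated here.

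Positions are given on GRCm38 from GENCODE vM21. 4930523C07Rik lies on chromosome 1 at 160044382 to 160080208 on the plus strand, with 5 merged exons. Gas5 lies on the same chromosome at 161034422 to 161038539, also on the plus strand. Malat1 (chromosome 19, 5795690 to 5802672) and Neat1 (chromosome 19, 5824708 to 5845478) are both on the minus strand, 22035 bases apart. Snhg1 is on the plus strand of chromosome 19 at 8723475 to 8726443. Its start is 105 bases from Slc3a2, an amino acid transporter subunit gene read from the other strand. Kcnq1ot1 is a single exon on the minus strand of chromosome 7 at 143203458 to 143296549.

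The start regions are shown because 4 of the 5 genes with a promoter in the RefSeq table share a sequence there. The table gives 250 bases before and 50 bases after each start. The 6 letters TGACGT, the core of the cyclic AMP response element, or their reverse complement ACGTCA, occur in the windows of 4930523C07Rik, Malat1, Gas5 and Kcnq1ot1. Among all 32851 windows of the same length in that table, 7.51% hold them on either strand. The match begins 20 bases before the start in 4930523C07Rik, 43 in Kcnq1ot1, 45 in Malat1 (with another at 155) and 46 in Gas5, where a pair of overlapping matches makes a palindrome. Gas5 has 2 windows in the table and the match is in the downstream one, so the 5 genes have 6 windows. The share over all windows counts windows, whereas the count of 4 is of genes. Snhg1 has no match in its window. The other motifs searched on both strands were GGGCGG (35.7% of all windows), CCAAT (37.4%), TATAAA (13.6%) and CACGTG (7.15%). Of these, GGGCGG occurred in 4930523C07Rik, Gas5 and Snhg1, CCAAT in Kcnq1ot1, TATAAA in Snhg1, and CACGTG in none of the 5 genes. These matches describe letters and no binding was measured. The sequences are from RefSeq (GRCm38.p6), 5′ to 3′ along each gene's strand, with TGACGT or its reverse complement in capitals.
4930523C07Rik, chr1:160044130-160044429, plus strand: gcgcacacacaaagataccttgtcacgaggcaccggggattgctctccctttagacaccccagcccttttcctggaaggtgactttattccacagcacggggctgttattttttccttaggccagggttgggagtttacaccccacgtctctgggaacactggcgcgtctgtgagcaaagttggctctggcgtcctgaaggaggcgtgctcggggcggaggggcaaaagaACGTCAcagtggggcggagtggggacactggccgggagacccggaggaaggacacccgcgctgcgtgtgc
Malat1, chr19:5802663-5802742, minus strand: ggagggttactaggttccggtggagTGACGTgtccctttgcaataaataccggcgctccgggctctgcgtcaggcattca
Gas5, chr1:161035096-161035175, plus strand: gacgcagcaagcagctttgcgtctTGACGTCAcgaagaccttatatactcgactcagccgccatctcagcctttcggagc
Kcnq1ot1, chr7:143296538-143296617, minus strand: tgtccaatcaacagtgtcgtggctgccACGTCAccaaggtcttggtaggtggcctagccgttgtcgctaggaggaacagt

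The ends of the nuclear transcripts matter for these libraries because RNA was enriched by its poly(A) tail. Neat1 has a short and a long transcript from the same start. The short one, Neat1-202 in GENCODE, is 3004 bases long and has the polyadenylation signal AATAAA beginning 20 bases before its end. The long one, Neat1-201, is 20771 bases long and ends in the A-rich letters AAAAGCAAAA, with no AATAAA in its last 60 bases. The same 10 letters occur in Malat1-201 (6983 bases), beginning 302 bases before the annotated end, and an AATAAA begins 22 bases before that end. In both genes this tract is known to fold into a triple helix that protects the RNA in place of a poly(A) tail. How well each form was captured was not measured, and counts per gene cannot tell the 2 forms of Neat1 apart. The stretches below are from GENCODE transcripts, with the signal or the tract in capitals.
Neat1-202, last 60 bases: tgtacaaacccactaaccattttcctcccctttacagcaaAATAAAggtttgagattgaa
Neat1-201, last 60 bases: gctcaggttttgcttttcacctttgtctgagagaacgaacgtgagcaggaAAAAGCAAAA
Malat1-201, bases 6642 to 6701: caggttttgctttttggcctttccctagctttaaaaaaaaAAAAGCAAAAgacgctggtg

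Depth was 8578575 to 12854367 reads in genes per library. Erbb3, the receptor kinase gene named in the labels, had 7.40, 10.6, 8.25 and 12.3 CPM in Erbb3f/f replicates 1 to 4 and 7.37, 14.3, 17.7 and 16.2 CPM in Erbb3d/d replicates 1 to 4. Its log2 fold change was 0.53 (SE 0.28) and did not pass edgeR's quasi-likelihood test (adjusted p = 0.485). The targeted gene was not lower, but counts per gene do not show whether part of a gene was deleted. The labels could not be checked in this way, so each direction below follows the labels only. The summed stromal markers (12 genes, Pdgfra, Dcn and Hoxa10 among them) had 11159 to 16387 CPM in every library. Erbb3d/d replicates 3 and 4 stood apart from the other libraries on the first principal component, with scores of 38.4 and 48.0, while Erbb3d/d replicate 2, at -19.8, lay among the Erbb3f/f libraries. Reads outside annotated genes, intronic reads among them, were 48.3% to 50.8% of all entries and did not separate the labels (two-sided exact permutation test, p = 0.257). What else this share holds depends on the counting options, the strand setting included, which are not given.

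Of the 6 genes, 4930523C07Rik was the one whose libraries separated by label. It had 50.7, 61.6, 48.3 and 54.2 CPM in Erbb3f/f replicates 1 to 4 (read counts of 521, 588, 615 and 479). In Erbb3d/d replicates 1 to 4 it had 130, 78.9, 105 and 114 CPM (read counts of 1324, 676, 1329 and 1299). All 4 Erbb3d/d libraries lay above all 4 Erbb3f/f libraries, and Erbb3d/d replicate 2 was the closest to them. The means were 53.7 ± 5.77 CPM (SD, n = 4) and 107 ± 21.5 CPM (SD, n = 4). The log2 fold change was 0.99 (SE 0.15), a 1.99-fold higher level. Among all genes tested, 5.04% had no overlap between the labels, 2.56% with Erbb3d/d higher and 2.48% with Erbb3d/d lower. A log2 fold change of at least 1 either way was found for 2.96% of genes and for 0 of the 6, with 4930523C07Rik just under it. Nothing is read from these shares, since the gene was listed with this contrast known.

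Markers of other cell types were summed over each library, and the ranges of every list overlapped between the labels. The summed epithelial markers (15 genes, 13 of them with a higher mean in Erbb3d/d) had 931 to 1467 CPM in Erbb3f/f and 1435 to 2295 CPM in Erbb3d/d. Erbb3d/d replicates 2, 3 and 4, at 1484, 2190 and 2295 CPM, lay above every Erbb3f/f library, so the overlap rested on replicate 1. The summed smooth muscle markers (10 genes, 9 of them with a higher mean in Erbb3d/d) had 1278 to 2353 CPM and 1996 to 4654 CPM. The means were higher in Erbb3d/d for 9 of 10 endothelial, 7 of 11 immune, 4 of 12 stromal and 0 of 6 mesothelial markers. No marker of these lists was at 0 in every library. Erbb3d/d replicate 1, the highest library for 4930523C07Rik, had 1435 CPM of epithelial markers, inside the Erbb3f/f range, and the most smooth muscle marker RNA. It was also the highest, at 14114 CPM, for 15 summed immediate early and heat shock genes. Of these, 12 had a higher mean in Erbb3d/d (5160 to 9759 CPM in Erbb3f/f against 7341 to 14114 CPM in Erbb3d/d). Handling can raise such genes, but it was not measured. The part of these genes and of the cell type markers in the difference was not tested. In bulk RNA, a change in the number of cells of a type and a change in RNA per cell cannot be told apart. Leaving out Erbb3d/d replicates 3 and 4 together, a choice made after seeing the data, gave 4930523C07Rik a log2 fold change of 0.97 (SE 0.19). That fit does not test the part of any cell type.

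**Figure D1:**
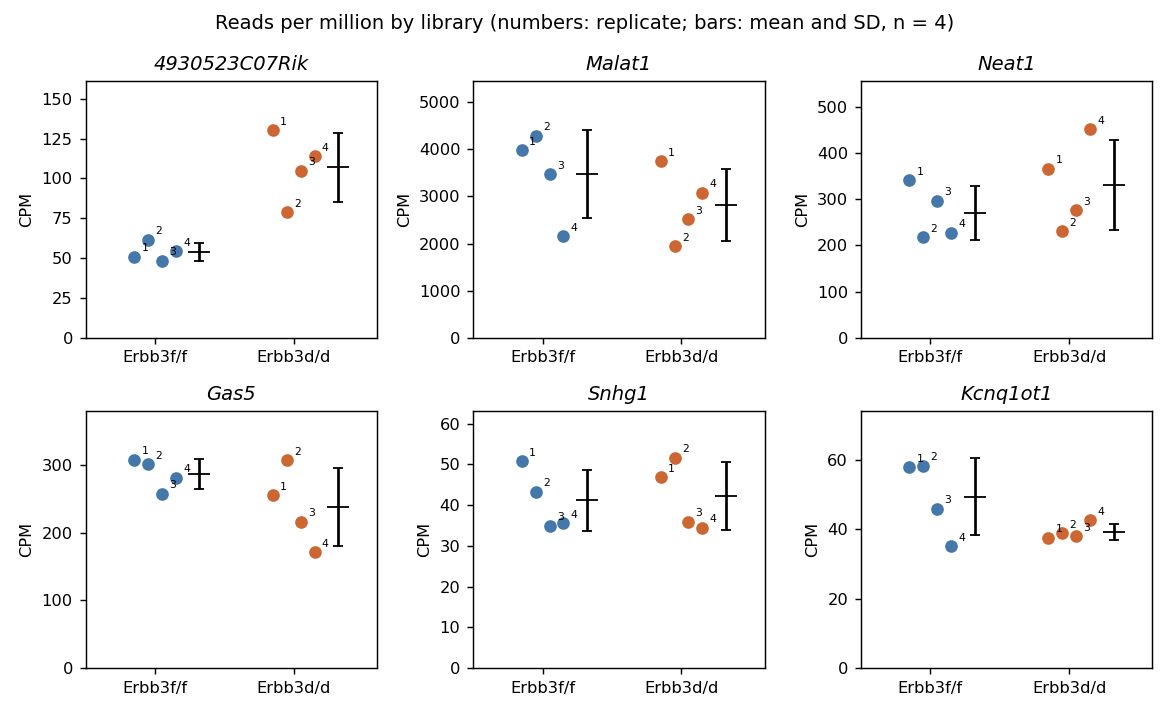
CPM of each of the 6 genes (vertical axes, from 0) in the 4 Erbb3f/f and the 4 Erbb3d/d libraries, numbered by replicate, with mean and SD beside them. The 4930523C07Rik libraries separate by label, at 48.3 to 61.6 CPM against 78.9 to 130 CPM, and the other 5 genes overlap.

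A noncoding gene read from the other strand, 4930562F07Rik, overlaps 4930523C07Rik at 160074735 to 160077985 on chromosome 1. Of its 897 exonic bases, 601 are also exonic in 4930523C07Rik, and 166 of the 297 coding bases of 4930523C07Rik lie in them. 4930562F07Rik had 16.0, 19.4, 11.7 and 14.4 CPM in Erbb3f/f replicates 1 to 4. In Erbb3d/d replicates 1 to 4 it had 37.3, 23.1, 30.8 and 37.3 CPM. Its labels did not overlap either, and again Erbb3d/d replicate 2 was the lowest of its label. The log2 fold change was 1.07 (SE 0.20) and is given without a test, because the gene shares exonic bases with one chosen for this contrast. Its reads were 24.2% to 32.7% of those of 4930523C07Rik in every library. Pearson's r of their log2 CPM was 0.98 and Spearman's rho 0.98 over the 8 libraries, which is a description of 2 genes that share a locus. Because the libraries carry no strand, reads of one gene from this interval cannot be told apart from reads of the other. The nearest counted genes outside the locus, both encoding tenascins, were close to absent, with at most 0.315 CPM in any library for Tnr and 1.34 CPM for Tnn.

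**Figure D2:**
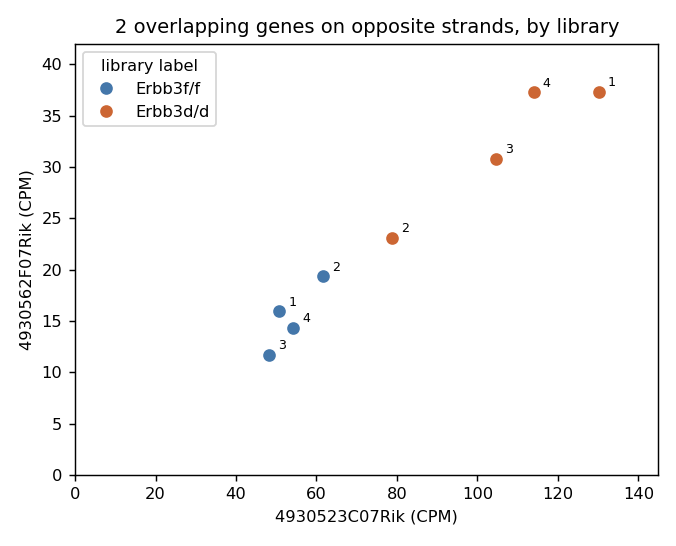
CPM of 4930523C07Rik (horizontal axis) against CPM of 4930562F07Rik (vertical axis), 1 point per library, coloured by label and numbered by replicate. Libraries high in one gene are high in the other, and the lowest Erbb3d/d library is at 78.9 and 23.1 CPM.

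Malat1 was the most abundant of the 6 by far and ranked 8 among all genes tested by mean CPM. It took 0.194% to 0.434% of all reads in genes. It had 3981, 4294, 3471 and 2156 CPM in Erbb3f/f replicates 1 to 4, and 3742, 1940, 2515 and 3080 CPM in Erbb3d/d replicates 1 to 4. The labels overlapped widely, with Erbb3f/f replicate 4 and Erbb3d/d replicate 2 the lowest libraries. The highest library was 1.99 times the lowest within Erbb3f/f and 1.93 times within Erbb3d/d. This spread within a label was larger than the difference between the labels, a log2 fold change of -0.30 (SE 0.25). Without Erbb3d/d replicate 2 it was -0.16, and without Erbb3f/f replicate 4 it was -0.47.

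Neat1 had 341, 218, 297 and 227 CPM in Erbb3f/f replicates 1 to 4, and 366, 231, 276 and 451 CPM in Erbb3d/d replicates 1 to 4. Erbb3d/d replicate 4 was the highest library and the other 3 lay close to or within the Erbb3f/f range. The log2 fold change was 0.29 (SE 0.22), and 0.11 without Erbb3d/d replicate 4. Malat1 reads were 9.49 to 19.7 times those of Neat1 in Erbb3f/f and 6.82 to 10.2 times in Erbb3d/d, which overlap. Despite lying side by side, the 2 genes had a Pearson's r of only 0.37 over the 8 libraries (Spearman's rho 0.14). Frmd8, a coding gene beside the pair, had a log2 fold change of 0.17 (SE 0.14; edgeR, adjusted p = 0.682). Its direction turned when Erbb3d/d replicates 3 and 4 were left out together.

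Gas5 had 308, 301, 258 and 282 CPM in Erbb3f/f replicates 1 to 4, and 256, 308, 216 and 171 CPM in Erbb3d/d replicates 1 to 4. Erbb3d/d replicates 1, 3 and 4 were below every Erbb3f/f library (replicate 1 narrowly), whereas replicate 2 stood with the highest Erbb3f/f libraries. The coefficient of variation was 7.87% among the Erbb3f/f and 24.3% among the Erbb3d/d libraries, and the log2 fold change -0.27 (SE 0.16). It was -0.42 without Erbb3d/d replicate 2, -0.14 without Erbb3d/d replicate 4, and -0.025 without Erbb3d/d replicates 3 and 4 together.

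Snhg1 had 50.8, 43.4, 35.0 and 35.5 CPM in Erbb3f/f replicates 1 to 4. In Erbb3d/d replicates 1 to 4 it had 46.9, 51.7, 35.9 and 34.5 CPM. The 2 sets covered nearly the same range, and the log2 fold change was 0.04 (SE 0.17), with a sign that changed in 4 of 16 other settings. Gas5 and Snhg1 had a Pearson's r of 0.67 over the 8 libraries (Spearman's rho 0.71). Slc3a2, which starts beside Snhg1 on the other strand, averaged 194 CPM under the Erbb3f/f label against 245 CPM, a log2 fold change of 0.34 (SE 0.12) that did not pass (edgeR, adjusted p = 0.337). On the far side, Wdr74 had a log2 fold change of -0.21 (SE 0.18; edgeR, adjusted p = 0.687), and its direction turned without Erbb3d/d replicates 3 and 4. Zbtb37, a zinc finger gene that overlaps the start of Gas5 on the other strand without sharing exonic bases, had -0.098 (SE 0.19; adjusted p = 0.875), a sign that turned without Erbb3d/d replicate 1. Serpinc1, the nearest counted gene before the start of Gas5, was too low to test, at 1.05 CPM or less in every library. The small nucleolar RNAs listed inside the hosts had low counts: Snord47 in Gas5 had 1.75 to 3.03 CPM, Snord22 in Snhg1 had 3.33 to 5.02 CPM, and Mir5117 in Gas5 had 0 reads in every library. In GENCODE vM21, all their annotated bases (77, 126 and 84) are also exonic in the host, so reads of the host there cannot be told apart from theirs. The annotation used for counting is not given, so how such reads were assigned is not known. How well such short RNAs were captured by poly(A) enrichment was not measured, so these counts do not give their levels.

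Kcnq1ot1 had 58.1, 58.4, 46.0 and 35.2 CPM in Erbb3f/f replicates 1 to 4, and 37.6, 39.0, 38.1 and 42.6 CPM in Erbb3d/d replicates 1 to 4. The Erbb3d/d libraries were close together and 3 of the 4 Erbb3f/f libraries lay above them, while Erbb3f/f replicate 4 was the lowest of all 8. The coefficient of variation was 22.5% among the Erbb3f/f and 5.79% among the Erbb3d/d libraries. Their log2 fold change was -0.33 (SE 0.16), or -0.46 without Erbb3f/f replicate 4. Kcnq1ot1 followed Malat1 more than any other of the 6 genes, with a Pearson's r of 0.75 over the 8 libraries (Spearman's rho 0.67). Kcnq1, the potassium channel gene that contains it, shares 121 exonic bases with it on the other strand. Kcnq1 had 8.47, 9.74, 4.56 and 7.80 CPM in Erbb3f/f replicates 1 to 4 and 9.24, 12.5, 11.4 and 8.77 CPM in Erbb3d/d replicates 1 to 4, a log2 fold change of 0.46 (SE 0.25; edgeR, adjusted p = 0.513). Without strand, intronic reads of Kcnq1 precursor RNA would be counted as Kcnq1ot1, and their number was not measured.

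Between genes, levels can be compared only per length, here as CPM per kb of merged exon. On that scale the mean levels were 451 for Malat1, 69.8 for Gas5, 14.5 for Neat1, 14.0 for Snhg1, 7.88 for 4930523C07Rik and 0.477 for Kcnq1ot1. Malat1 ranked 30 and Kcnq1ot1 13139 among 13695 genes with a length. Neat1 (10.5 to 21.7 over the 8 libraries) and Snhg1 (11.6 to 17.4) could not be put in order. Gas5 (45.6 to 82.0) stayed above both and below Malat1 (278 to 615) in every library. 4930523C07Rik (4.74 to 12.8) reached the lower part of the Snhg1 range. Its merged exons hold 10195 bases and its longest GENCODE transcript 5652, so its place below the others depends on the length used. The place of Neat1 depends on its length. If all its reads came from the short transcript, its mean would be 100.2 CPM per kb and not 14.5. Some transcripts of Gas5 and Snhg1 retain introns, so their merged exons are longer than their spliced forms. For scale, Xist, the RNA that coats the inactive X chromosome, had a mean of 216 CPM per kb, and Tug1 had 30.4.

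**Figure D3:**
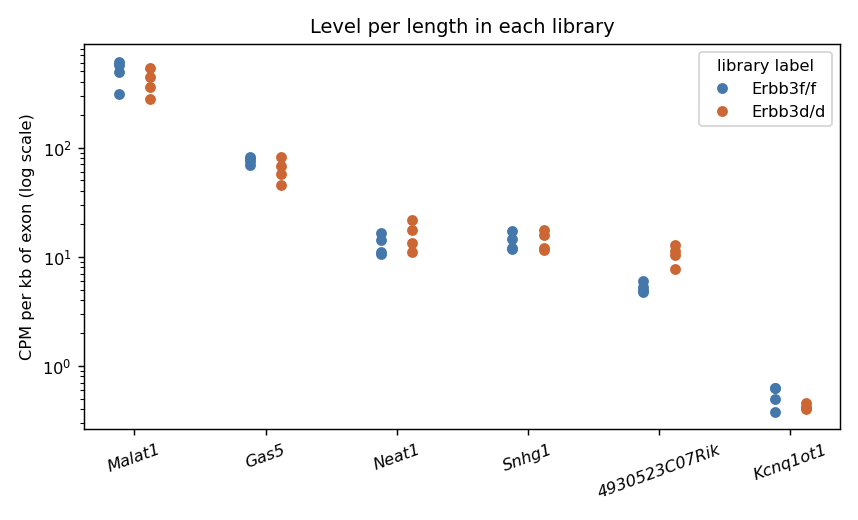
CPM per kb of merged exon (log axis) for the 6 genes in order of their mean, 1 point per library, coloured by label. Malat1 is highest at 278 to 615, Kcnq1ot1 lowest, and Neat1 and Snhg1 overlap.

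Across all genes, edgeR called 0 of 14598 at an adjusted p under 0.05 (0.00%), so none of the 6 was called. Without adjustment, 1695 genes (11.6%) had a p under 0.05, 1 of them among the 6. DESeq2 called 262 genes (1.79%), limma-voom called 0 (0.00%), and edgeR without Erbb3d/d replicate 2 called 259 (1.75%). Of the 6, DESeq2 and edgeR without that library each called 1, 4930523C07Rik, and nothing is read from this because its difference was known when it was chosen. Of the 6 genes 3 had a positive and 3 a negative log2 fold change. The median was -0.12, beside -0.011 over all genes tested.

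**Figure D4:**
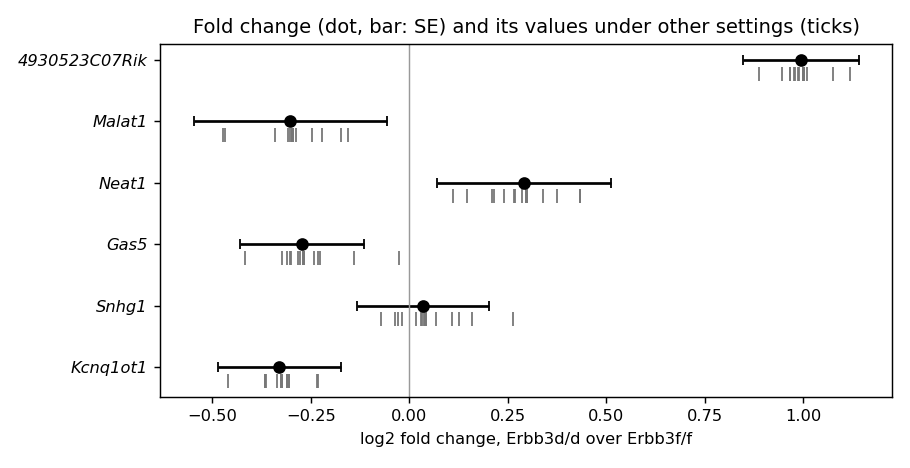
Log2 fold change of Erbb3d/d over Erbb3f/f for the 6 genes (dots, with SE) and the value under each of 16 other settings (ticks). 4930523C07Rik stays between 0.89 and 1.12, and Snhg1 has values on both sides of 0.

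The pattern over the 8 libraries was compared with that of every tested gene by Pearson's r of log2 CPM. With so many genes and 8 libraries, high values are found for any gene, and they carry no test. The most alike to 4930523C07Rik were Cpeb3 (r = 0.99), which encodes a regulator of mRNA translation, BC052040 (0.98) and Tbc1d1 (0.98), which encodes a Rab GTPase-activating protein. The nearest to Malat1 were Safb2 (0.93), Cpsf4l (0.93) and Snapc5 (0.92), and the nearest to Neat1 were Olfr1033 (0.96), Cited2 (0.96) and Spns1 (0.95). Gas5 was most like Limk1 (0.99), Smyd2 (0.98) and Wdr77 (0.98). Snhg1 was most like Tmem88 (0.98), Fam189a2 (0.96) and Phkb (0.95), and genes like Kcnq1ot1 included Top1mt (0.96) and Shmt1 (0.96).

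Other small nucleolar RNA host genes were read from a list of 19, of which 11 were in the tables and 10 were tested. None was called (edgeR; 1 at an unadjusted p under 0.05), 8 were lower and 2 higher, and the median log2 fold change was -0.081. For comparison, 11.6% of all genes tested had an unadjusted p under 0.05 and 48.0% a log2 fold change above 0. The smallest p-values among those with a mean of at least 1 CPM were those of Snhg4 and Snhg3. Snhg4 had 32.7, 25.0, 24.5 and 24.6 CPM in Erbb3f/f replicates 1 to 4 and 16.4, 28.1, 15.7 and 9.74 CPM in Erbb3d/d replicates 1 to 4, a log2 fold change of -0.62 (SE 0.27; edgeR, adjusted p = 0.424). Snhg3 had 45.8, 41.7, 32.6 and 33.4 CPM and then 30.5, 37.4, 27.9 and 18.2 CPM, a log2 fold change of -0.43 (SE 0.21; edgeR, adjusted p = 0.453). Erbb3d/d libraries overlapped those of Erbb3f/f in both genes. Nonsense-mediated decay factors, which act on such host RNAs, gave 0 calls among 14 tested (0 at an unadjusted p under 0.05), with 9 lower, 5 higher and a median of -0.037 on the log2 scale. The smallest p-values there were those of Rbm8a (-0.20, SE 0.11; edgeR, adjusted p = 0.528) and Casc3 (-0.11, SE 0.076; edgeR, adjusted p = 0.617). Casc3, 1 of the 14, had no overlap between the labels, as did 5.04% of all genes tested.

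Other long noncoding RNAs came from a list of 39, of which 28 were in the tables and 24 were tested. None was called (3 at an unadjusted p under 0.05), 17 were lower and 7 higher, with a median log2 fold change of -0.14 and a range from -1.46 to 0.86. Beside this, 11.6% of all genes tested in edgeR had an unadjusted p under 0.05 and 48.0% a log2 fold change above 0. Mir22hg, the host of a microRNA, had a mean of 18.2 ± 4.04 CPM (SD, n = 4) under the Erbb3f/f label and 26.6 ± 5.38 CPM (SD, n = 4) under the other, a log2 fold change of 0.56 (SE 0.20; edgeR, adjusted p = 0.337). Hotair, transcribed from the HoxC cluster, had read counts of 30, 39, 24 and 9 in the Erbb3f/f libraries, in replicate order, against 14, 4, 16 and 5. Its log2 fold change was -1.46 (SE 0.55; edgeR, adjusted p = 0.356). Neither gene separated the labels completely.

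Genes listed for proteins of paraspeckles and nuclear speckles had small fold changes. Of 21 paraspeckle proteins tested, 0 were called (0 at an unadjusted p under 0.05) and 18 had a negative log2 fold change, with a median of only -0.029. Cpsf6 and Hnrnpr had the smallest p-values, at -0.15 (SE 0.083; edgeR, adjusted p = 0.504) and -0.16 (SE 0.11; adjusted p = 0.601). Of 21 nuclear speckle proteins tested, 0 were called (0 at an unadjusted p under 0.05), 16 were negative and the median was -0.030. The splicing kinase gene Clk4 had a log2 fold change of 0.21 (SE 0.10; edgeR, adjusted p = 0.464) and the splicing factor gene Srsf10 had -0.13 (SE 0.10; adjusted p = 0.654). Among all genes tested in edgeR, 11.6% had an unadjusted p under 0.05 and 48.0% a log2 fold change above 0.

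The Kcnq1ot1 imprinted domain was read from 12 genes, of which 9 were tested. None was called (1 at an unadjusted p under 0.05), 7 were higher and 2 lower, with a median log2 fold change of 0.10. Over all genes tested in edgeR, 11.6% had an unadjusted p under 0.05 and 48.0% a log2 fold change above 0. Nothing is read from these counts. Ascl2, a transcription factor gene, averaged 1.39 CPM under the Erbb3f/f label against 3.03 CPM, a log2 fold change of 1.15 (SE 0.47; edgeR, adjusted p = 0.389). Cdkn1c had 95.3, 53.2, 140 and 75.5 CPM in Erbb3f/f replicates 1 to 4 and 122, 98.8, 129 and 101 CPM in Erbb3d/d replicates 1 to 4, a log2 fold change of 0.31 (SE 0.26). The Erbb3d/d values of Cdkn1c lay inside the Erbb3f/f range. Cdkn1c is named here outside the rule, because Kcnq1ot1 is known to silence it. Outside the domain's tested genes, Trpm5 had 1.27 CPM or less in every library, and 4933417O13Rik, the nearest counted gene on the other side, had 0 reads in 7 of the 8 libraries.

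**Figure D5:**
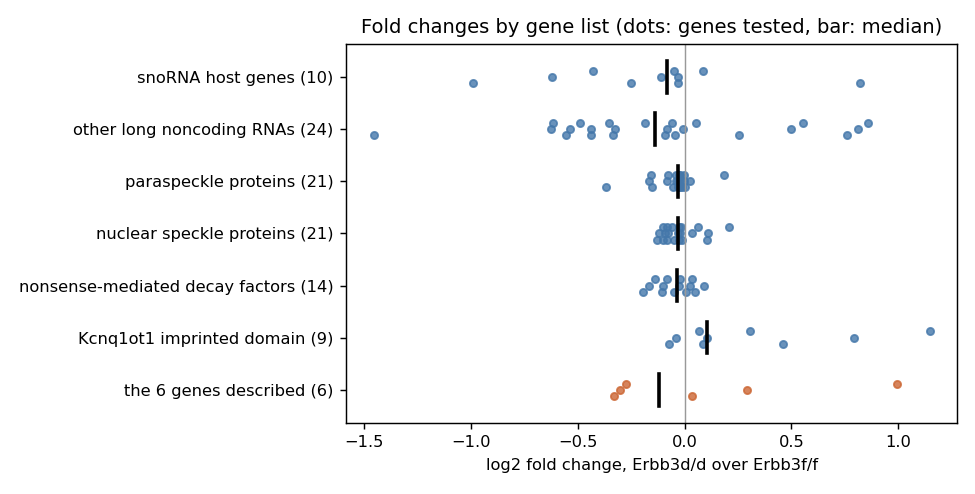
Log2 fold change of Erbb3d/d over Erbb3f/f for each tested gene of the 6 companion lists and for the 6 genes described, with the median of each as a bar (number of genes in brackets). List medians lie between -0.14 and 0.10, and 4930523C07Rik is the rightmost of the 6.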

How the data were processed

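The authors deposited 1 table of raw read counts per library. Per the submitters' processing notes the tools were HISAT2, SAMtools, HTSeq and StringTie and the build mm10 (GRCm38). Versions, annotation and counting options are not given in the sources used here. Lines assigned to genes held 27.0% to 29.1% of entries. The last 5 lines, which name no gene, entered neither library sizes nor tests. Libraries were grouped by title. Counts were scaled by TMM, filtered by filterByExpr and tested with edgeR 4.0.16 (glmQLFit, robust; glmQLFTest) in R 4.3.3, with an intercept and genotype, and adjusted by Benjamini-Hochberg at 0.05. DESeq2 1.42.0 and limma 3.58.1 (voom) were alternatives. The edgeR fit was tested on simulated data. Log2 CPM used a prior count of 2. Of 23420 symbols, 21737 matched 1 gene of GENCODE vM21. Members and lists were chosen with earlier results of these data known. Other genes named were the called genes of each list or, with none, the 2 of smallest p-value at a mean of at least 1 CPM, the nearest counted genes, overlapping counted genes and the 3 most alike by r. A few genes that this rule names are not reported here. Reads are not independent molecules, so depth limits counting error only. Library pairs differed by far more than sampling noise, so none was merged.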

Additional observations from a re-analysis of the deposited data

Results flagged for a closer look

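Among 176 groups of 4 libraries examined (the CPM of the 6 genes and of the other named genes, the ratios between the 6, the summed lists and the library measures), 10 had 1 library far from the other 3, by Dixon's 95% gap criterion. Chance alone gives about 1 in 20 groups. Snhg4 had 32.7 CPM in Erbb3f/f replicate 1, where the nearest library had 25.0 CPM. Mir22hg had 18.7 CPM in Erbb3d/d replicate 2, the nearest being 28.7 CPM. Clk4 had 54.8 CPM in Erbb3d/d replicate 3 against 56.2 CPM in the nearest library, a small gap in a group with a narrow range. Snord22 had 3.73 CPM in Erbb3f/f replicate 4 against 4.77 CPM. In Erbb3f/f replicate 4, the reads of 4930523C07Rik were 0.0251 times those of Malat1, the nearest ratio being 0.0143, and the reads of Gas5 were 8.02 times those of Kcnq1ot1, the nearest being 5.60. Malat1 and Kcnq1ot1 both had their lowest Erbb3f/f value in that library. The remaining 4 rest on a few reads: Tnr had 0.314 CPM in Erbb3f/f replicate 3 and 0.315 CPM in Erbb3d/d replicate 3 with 0 elsewhere, 4933417O13Rik had 0.0983 CPM in Erbb3d/d replicate 1 with 0 elsewhere, and Serpinc1 had 1.05 CPM in Erbb3d/d replicate 4 against 0.394 CPM.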

How the results depend on the processing

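No gene of the companion lists was called in any setting, and the signs of the log2 fold changes of 4930523C07Rik, Malat1, Neat1, Gas5 and Kcnq1ot1 held in all 16. Over all genes, DESeq2 called 203 higher and 59 lower, and leaving out 1 library gave 0 to 143 higher and 0 to 116 lower in edgeR, all of them without Erbb3d/d replicate 2. Of the 6 genes, DESeq2 called 1 higher, and leaving out 1 library gave 0 to 1 higher, likewise without Erbb3d/d replicate 2. With the replicate number as a block, edgeR called 39 genes higher and 13 lower, 0.356% of those tested, and none of the 6 was among them. Same-numbered libraries had correlations of deviations of 0.22, 0.16, 0.096 and 0.15, and 3 of 4 matched their own number best, a hint of pairing. Since 1 correlation was under the 0.1 asked of every pair and the labels name nothing shared, the numbers were not taken as pairs. The cause of these changes was not tested. Without Erbb3d/d replicates 3 and 4, chosen after seeing the data, the log2 fold change of Frmd8 was -0.044 and that of Wdr74 0.0069. That of Zbtb37 ran from -0.26 to 0.0037 over the fits without 1 library. The share of unaligned reads was 1.24 percentage points higher under the Erbb3d/d label (exact permutation test, two-sided, p = 0.0571), and this difference ran from 0.946 to 1.51 points without 1 library, passing without Erbb3f/f replicate 4. Genes under a few CPM, such as Hotair, rest on too few reads for small differences to be detectable.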
